A study of Rattus norvegicus with 34 samples.

Results

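Immediate early genes were followed in the testis of adult rats fed triazole fungicides. The 9 genes listed were Fos, Jun, Junb, Egr1, Atf3, Ier2, Dusp1, Zfp36 and Btg2, and a probe set was taken for a gene where the platform annotation paired it with that single gene symbol. This gave 12 probe sets for 8 genes, among 31042 probe sets tested and 14217 genes with a single symbol in the series. Btg2, which codes for an antiproliferative protein, had no probe set under this rule and was not analysed here. The genes were not chosen by a threshold on measured values.

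The samples were testes of individual Wistar Han rats at postnatal day 92, exposed through the diet from gestation day 6. The groups were M500 (myclobutanil at 500 ppm, 3 arrays), M2000 (myclobutanil at 2000 ppm, 5), P500 (propiconazole at 500 ppm, 4), P2500 (propiconazole at 2500 ppm, 5), T500 (triadimefon at 500 ppm, 4), T1800 (triadimefon at 1800 ppm, 4) and Control (0 ppm, 6). All rats were of the same strain, and no genetic change was named in the labels. Each array stood for 1 rat by its animal number, and no label names the litters. Of 34 samples, 3 carry a label that sets them apart from the final analysis; they were not analysed here, which left 31 arrays.

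Immediate early genes are transcribed within minutes of a growth factor, hormone or stress signal, without new protein synthesis, and their mRNAs decay quickly. Kinase cascades reach them through serum response factor at the CArG box and through CREB at the cyclic AMP response element (CRE). Fos and Jun proteins pair as the transcription factor AP-1, Egr1 and Atf3 are further transcription factors, and Dusp1 and Zfp36 shorten the response. In the testis these genes are known to respond to gonadotropins and growth factors in somatic cells and to handling of the tissue.

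Promoters of Egr1, Junb and Zfp36 are shown because Egr1 had the largest spread over arrays, and because Junb and Zfp36 moved together over arrays. They are RefSeq promoter sequences of GRCr8, 5′ to 3′ on the gene's strand, with 250 bases before and 50 after the start. Their positions are chr18:26736828-26737127 (plus strand), chr19:40080876-40081175 (plus strand) and chr1:92799059-92799358 (minus strand). Capitals mark CArG boxes and the first 5 bases of the CRE, TGACG, or their reverse complement (the short CRE).
Egr1: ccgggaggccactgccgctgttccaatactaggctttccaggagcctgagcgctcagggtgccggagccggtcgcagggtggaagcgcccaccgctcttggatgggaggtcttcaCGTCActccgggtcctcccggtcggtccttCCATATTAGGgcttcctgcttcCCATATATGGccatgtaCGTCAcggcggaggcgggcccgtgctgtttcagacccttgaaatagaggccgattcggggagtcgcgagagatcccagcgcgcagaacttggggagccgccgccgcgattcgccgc
Junb: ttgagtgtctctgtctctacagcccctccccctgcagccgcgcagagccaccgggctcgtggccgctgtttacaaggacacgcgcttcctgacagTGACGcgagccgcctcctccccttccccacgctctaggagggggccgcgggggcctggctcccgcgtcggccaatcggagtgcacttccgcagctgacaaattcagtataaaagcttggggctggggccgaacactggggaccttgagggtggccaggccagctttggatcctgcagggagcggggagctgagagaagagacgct
Zfp36: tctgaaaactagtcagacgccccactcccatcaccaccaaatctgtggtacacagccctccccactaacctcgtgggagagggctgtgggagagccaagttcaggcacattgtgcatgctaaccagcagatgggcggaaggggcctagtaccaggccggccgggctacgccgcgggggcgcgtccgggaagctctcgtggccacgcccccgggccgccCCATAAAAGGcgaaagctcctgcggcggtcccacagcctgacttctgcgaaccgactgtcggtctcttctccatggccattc
The Egr1 promoter held 2 CArG boxes and 2 short CREs, the Junb promoter 1 short CRE, and the Zfp36 promoter 1 CArG box. Promoters were at hand for 6 of the 9 genes (Junb, Egr1, Ier2, Dusp1, Zfp36 and Btg2), and both strands were searched. The CArG box stood in 2 of the 6 and in 1.64% of the 33469 promoters of this length, and the short CRE in 5 of the 6 and in 21.2% of all. The whole CRE, TGACGTCA, which contains the short CRE, stood in Btg2, Dusp1 and Ier2 and in 1.83% of all promoters. The AP-1 motif TGANTCA stood in 0 of the 6 and in 7.33% of all. The EGR motif GCGNGGGCG, not marked above, stood in Btg2 and Zfp36 and in 4.98% of all. These matches describe the letters in the window and were not tested as sites.

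Values are scores per probe set, quantile normalized over arrays, on a log-like scale whose array medians were near 0. No source used here names the base of the logarithm, so differences are in score units and are not folds. Scores of different probe sets are not levels that can be set against each other. All 12 probe sets scored below bioB, the hybridisation control of lowest concentration, on 31 of 31 arrays, as most probe sets did: the share of all probe sets that scored above bioB was 6.28% to 17.7% per array. Junb, the Dusp1 probe set 1368146_at and Zfp36 lay above the array median on 31 arrays, the Jun probe set 1369788_s_at on 26, Egr1 on 7, and Atf3 and Ier2 on 0. Where a gene had several probe sets, the one of highest mean leads (1371283_at for Fos, 1369788_s_at for Jun, 1368146_at for Dusp1), and a gene's name alone means that probe set.

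The tissue label was borne out by its markers. The mean score of 6 spermatid markers was 3.96 to 4.34 over the arrays, that of 3 measured spermatocyte markers 2.18 to 2.60, and that of 5 Leydig markers 0.828 to 1.35. Of 6 Sertoli markers, 5 were measured (mean 0.604 to 0.943). P2500 replicates 2, 3 and 4 carried liver transcripts, with a mean of 6 liver markers of 1.94 to 1.99, against -0.167 to 0.467 on all other arrays. Among these markers, albumin (Alb) scored above bioB on 14 arrays, and each of the others on 3. The gap between the 3′ and the 5′ beta-actin control probe sets, which widens as RNA is degraded, was above 1.4 on 5 arrays: M500 04 (1.60), M2000 05 (1.47), P2500 05 (1.47), Control 02 (1.67) and Control 06 (1.63). Of the T1800 arrays 3 of 4, and of the Control arrays 3 of 6, were of animals numbered above 3000 (the later animals), and all other arrays were of animals with lower numbers. The first principal component held 49.9% of the variance. In whole testis, fewer cells of a type and less RNA per cell cannot be told apart.

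No immediate early gene passed the test against Control in any exposed group. Over 12 probe sets and 6 exposed groups, 0 of 72 tests had a limma adjusted p under 0.05, and 0 had an unadjusted p under 0.05. The differences ran from -0.0577 to 0.0777 score units, and the 95% intervals reached from -0.205 to 0.242. The limma adjusted p was at least 0.679 throughout. Over all probe sets, the share called at an adjusted p under 0.05 was 0% for M500, M2000, P500, P2500 and T500 against Control and 0.00644% (2 probe sets) for T1800 against Control. At an unadjusted p under 0.05 it was 9% for M500, 1.7% for M2000, 3.36% for P500, 4.15% for P2500, 7.62% for T500 and 5.84% for T1800. After adjustment, a count of 0 is near this background. The intervals give the range of differences that these arrays allow.

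**Figure D1:**
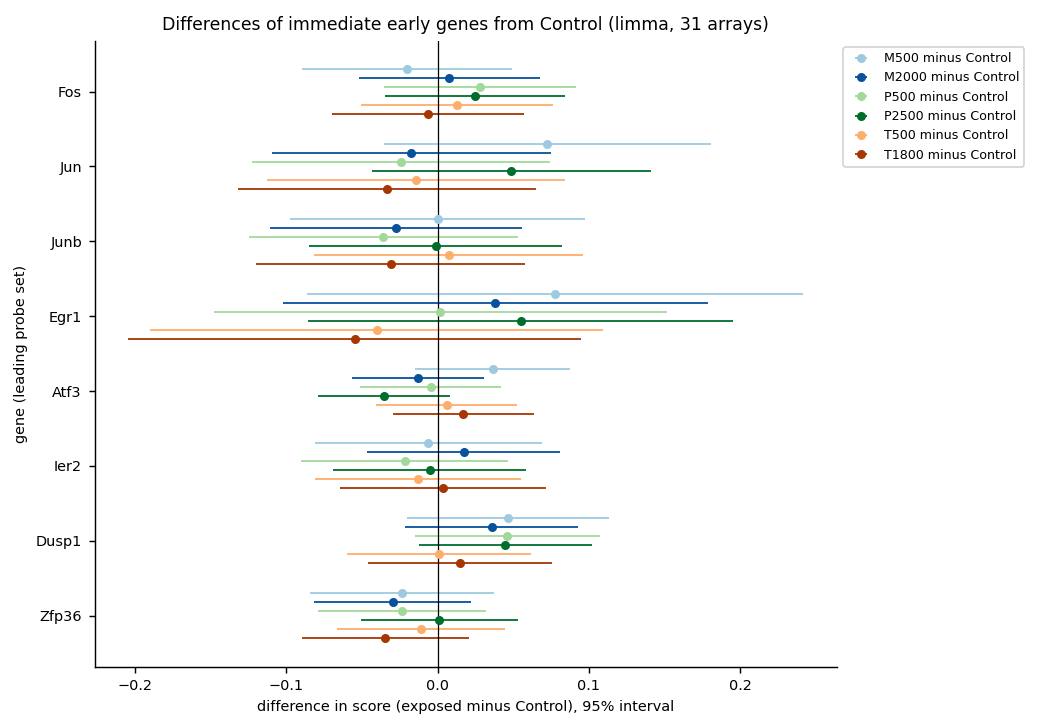
Difference in score of each immediate early gene (leading probe set, 1 row each) between an exposed group and Control, with its 95% interval from limma over 31 arrays. All 48 intervals cross 0, and those of Egr1 are the widest.

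No gene passed the test between the doses of 1 compound, or between compounds at the same dose. High against mid dose gave 0 of 36 tests with an unadjusted or limma adjusted p under 0.05, with differences from -0.0899 to 0.0807. Over all probe sets the share at an adjusted p under 0.05 was 0% for M2000 minus M500 and P2500 minus P500 and 0.00322% for T1800 minus T500, and at an unadjusted p 7.55%, 3.83% and 1.97% in that order. The 3 pairs of compounds at 500 ppm gave 0 of 36 tests at either threshold, with differences from -0.113 to 0.118 and intervals from -0.253 to 0.295. There the share of all probe sets was 0% after adjustment in each pair, and unadjusted 7.48% for M500 minus P500, 6.69% for M500 minus T500 and 5.08% for P500 minus T500. An F test over the 7 groups gave adjusted p-values of 0.994 to 0.999 for the 12 probe sets (limma), with 0.00322% of all probe sets called after adjustment and 5.93% before it. The widest difference, 0.118, was that of Egr1 between M500 and T500 (interval -0.0591 to 0.295). A p that misses the threshold does not show that the 3 compounds act alike.

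**Figure D2:**
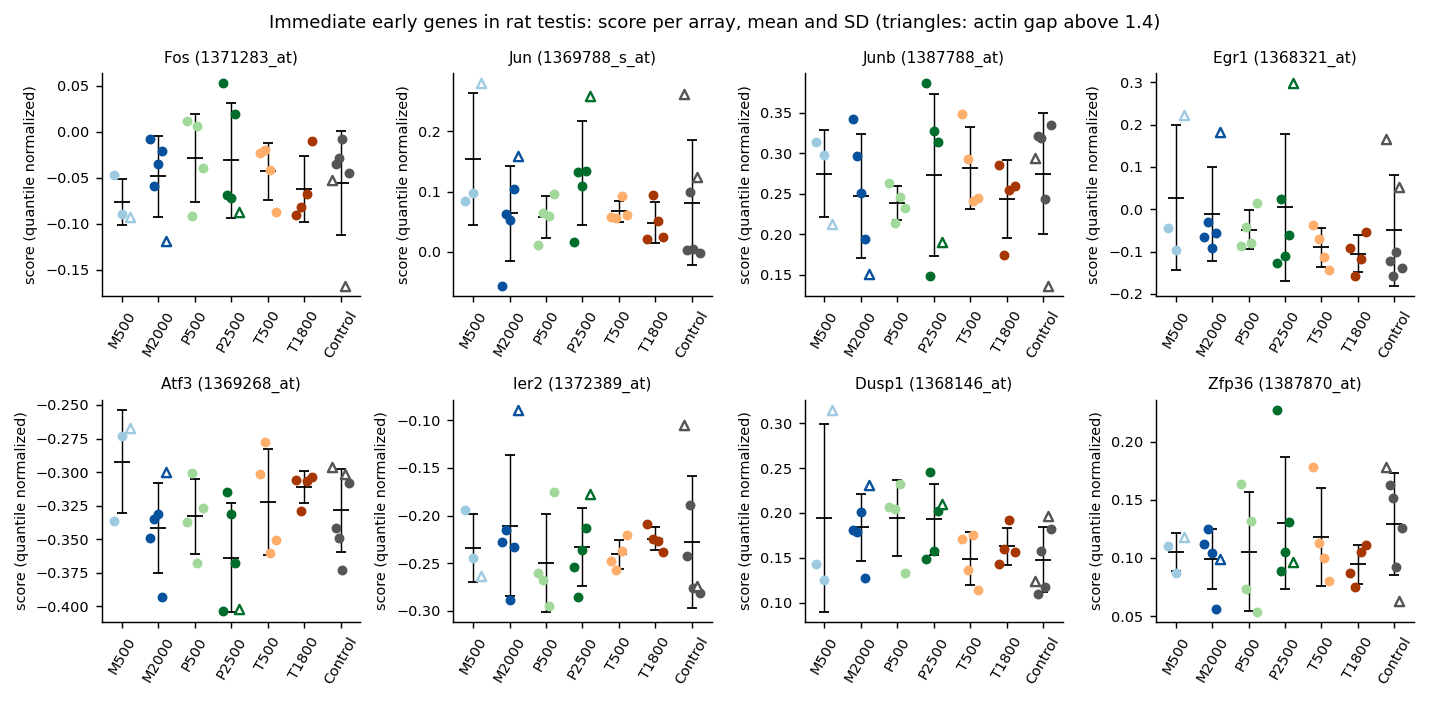
Quantile-normalized score of the leading probe set of 8 immediate early genes on each of 31 arrays, by group, with the group mean (bar) and SD. Open triangles are the 5 arrays with an actin gap above 1.4: for Egr1 they lie at 0.0521 to 0.298, and all other arrays lie at 0.0248 or below.

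Egr1 codes for a zinc-finger transcription factor that also takes part in the control of gonadotropins in the pituitary. Its scores were -0.0439, -0.0964 and 0.223 in M500 and -0.0660, -0.0306, -0.0905, -0.0566 and 0.184 in M2000. They were -0.0870, -0.0421, -0.0793 and 0.0148 in P500 and -0.128, 0.0248, -0.110, -0.0603 and 0.298 in P2500. In each of M500, M2000 and P2500, 1 array was high and the others were near or below 0. The scores were -0.0377, -0.0694, -0.112 and -0.143 in T500, and -0.0907, -0.157, -0.118 and -0.0539 in T1800. In Control they ran from -0.158 to 0.167 with a median of -0.111. Every triadimefon array was below 0, and every exposed group overlapped Control.

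The group means of Egr1 were ordered M500 (0.0277 ± 0.171), P2500 (0.00497 ± 0.174), M2000 (-0.0120 ± 0.111), P500 (-0.0484 ± 0.0465), Control (-0.0501 ± 0.130), T500 (-0.0904 ± 0.0462) and T1800 (-0.105 ± 0.0436), with SD. No pair of neighbours in that order differed by more than their SD. The difference between M500 and Control was 0.0777 (SE 0.0799, limma adjusted p = 0.849). That between T1800 and Control was -0.0548 (SE 0.0729, limma adjusted p = 0.841). The SD of Egr1 within groups, 0.118, was higher than that of 86.8% of all probe sets, while that of Atf3, 0.0331, was higher than that of 10.6%.

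When the 5 arrays with gaps over 1.4 were left out, the mean of Egr1 was -0.0702 ± 0.0371 in M500 (SD, 2 arrays). It was -0.0609 ± 0.0248 in M2000, -0.0484 ± 0.0465 in P500 and -0.0682 ± 0.0683 in P2500 (SD, 4 arrays each). It was -0.0904 ± 0.0462 in T500, -0.105 ± 0.0436 in T1800 and -0.130 ± 0.0247 in Control (4 arrays each). All 6 exposed means were then above that of Control, by 0.0251 (T1800) to 0.0816 (P500). These 6 differences share the same 4 Control arrays and are not independent of each other. The difference of P500, 0.0816, had an unadjusted p of 0.0145 and that of M2000, 0.0690, one of 0.0353, but the limma adjusted p-values were 0.144 and 1. With all arrays the P500 difference was 0.00171. The 4 P500 arrays had actin gaps of 0.850 to 1.33 and the 4 Control arrays that remained had gaps of 0.833 to 0.878. With the gap as a covariate over all 31 arrays, the P500 difference was -0.00325, and the other 5 ran from 0.0444 (T1800) to 0.0923 (M500). The smallest limma adjusted p of these 6 was 0.181.

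Jun, the main partner of Fos in AP-1, behaved likewise over arrays. Its probe set 1369788_s_at scored 0.0845, 0.0979 and 0.280 in M500 and -0.0561, 0.0626, 0.0522, 0.103 and 0.158 in M2000. It scored 0.0109, 0.0646, 0.0589 and 0.0953 in P500 and 0.0166, 0.132, 0.109, 0.135 and 0.259 in P2500. The highest array of each of M500, M2000 and P2500 was again the one of wide actin gap. T500 lay at 0.0561 to 0.0923, T1800 at 0.0205 to 0.0946 and Control at -0.00236 to 0.262 (median 0.0515). All exposed groups overlapped Control, and the mean of P2500 was 0.0487 above it (limma adjusted p = 1).

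This P2500 difference depended on how the arrays were weighted. With array weights, which downweight arrays far from their group, Jun was 0.0968 higher in P2500 than in Control, with a limma adjusted p of 0.0396, the single call among 72 tests under that setting. Without the 5 arrays of wide actin gap the difference was 0.0723 (limma adjusted p = 0.473), and with the gap as a covariate 0.0705 (limma adjusted p = 0.348). Array weights called 882 of all probe sets (2.84%) in P2500 against Control, where equal weights called 0. Of the P2500 arrays, replicates 2, 3 and 4, which carry liver transcripts, scored 0.132, 0.109 and 0.135 for Jun, and replicate 1, with few liver transcripts and a narrow gap, scored 0.0166. Without replicates 2, 3 and 4 the difference was 0.0562 (limma adjusted p = 1). Without replicate 1 it was 0.0771, and without replicate 5, the array of wide gap, it was 0.0166 (limma adjusted p = 1 and 0.963). With equal weights over all arrays, the other Jun probe sets were lower in P2500 than in Control, by -0.0128 (1374404_at) and -0.0292 (1389528_s_at). The direction in P2500 thus differed between probe sets of Jun. These other probe sets were not called under any of these settings.

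Atf3, a stress-induced member of the ATF family, had the smallest unadjusted p of all 144 limma tests (0.0638). It scored -0.349, -0.335, -0.331, -0.393 and -0.300 in M2000, against -0.337, -0.273 and -0.267 in M500. The difference was -0.0496 (interval -0.102 to 0.00306, limma adjusted p = 0.689), and the groups overlapped. In P2500 it averaged -0.364 ± 0.0405, against -0.328 ± 0.0308 in Control (SD, n = 5 and 6), a difference of -0.0353 with a limma adjusted p of 1. Atf3 was below the array median on 31 of 31 arrays.

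Fos and Junb had group means closer together than the spread within their most variable group. Fos averages ran from -0.0763 in M500 to -0.0281 in P500, with -0.0559 ± 0.0567 in Control (SD, n = 6). The other Fos probe set, 1375043_at, had its lowest mean in P500 (-0.524) and its highest in M500 (-0.441). Junb, an AP-1 subunit that can restrain Jun, averaged 0.239 in P500 to 0.282 in T500, with 0.275 ± 0.0750 in Control (SD, n = 6). The span of group means was 0.0482 for Fos, against a largest SD within a group of 0.0628, and 0.0432 for Junb, against 0.0999.

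Dusp1 codes for a phosphatase that switches off MAP kinases. It scored 0.149, 0.245, 0.158, 0.202 and 0.210 in P2500, against 0.110 to 0.197 with a median of 0.141 in Control. P2500 averaged 0.193 ± 0.0396 and Control 0.148 ± 0.0362 (SD, n = 5 and 6), a difference of 0.0447 (interval -0.0125 to 0.102, limma adjusted p = 1). M500, M2000 and P500 also averaged higher than Control, by 0.0465, 0.0358 and 0.0461, and none passed the test. The M500 difference rested on M500 04, which scored 0.315 where the other M500 arrays scored 0.143 and 0.126. It was -0.00768 without the 5 arrays of wide gap and 0.00176 with array weights. The other Dusp1 probe set, 1368147_at, differed from Control by -0.0243 in M500, -0.00352 in P500, -0.00228 in P2500 and 0.0136 in M2000. Of these groups, only M2000 was higher than Control on both Dusp1 probe sets. Ier2, a nuclear protein of early growth responses, had group means from -0.249 in P500 to -0.211 in M2000, with -0.228 ± 0.0696 in Control (SD, n = 6). Zfp36, which codes for tristetraprolin, a protein that speeds the decay of AU-rich mRNAs, averaged 0.0945 ± 0.0168 in T1800 and 0.129 ± 0.0440 in Control (SD, n = 4 and 6), a difference of -0.0345 with a limma adjusted p of 0.77. It was 0.00307 within the later animals (limma adjusted p = 0.974) and -0.0237 with the animal series as a block (limma adjusted p = 0.846).

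**Figure D3:**
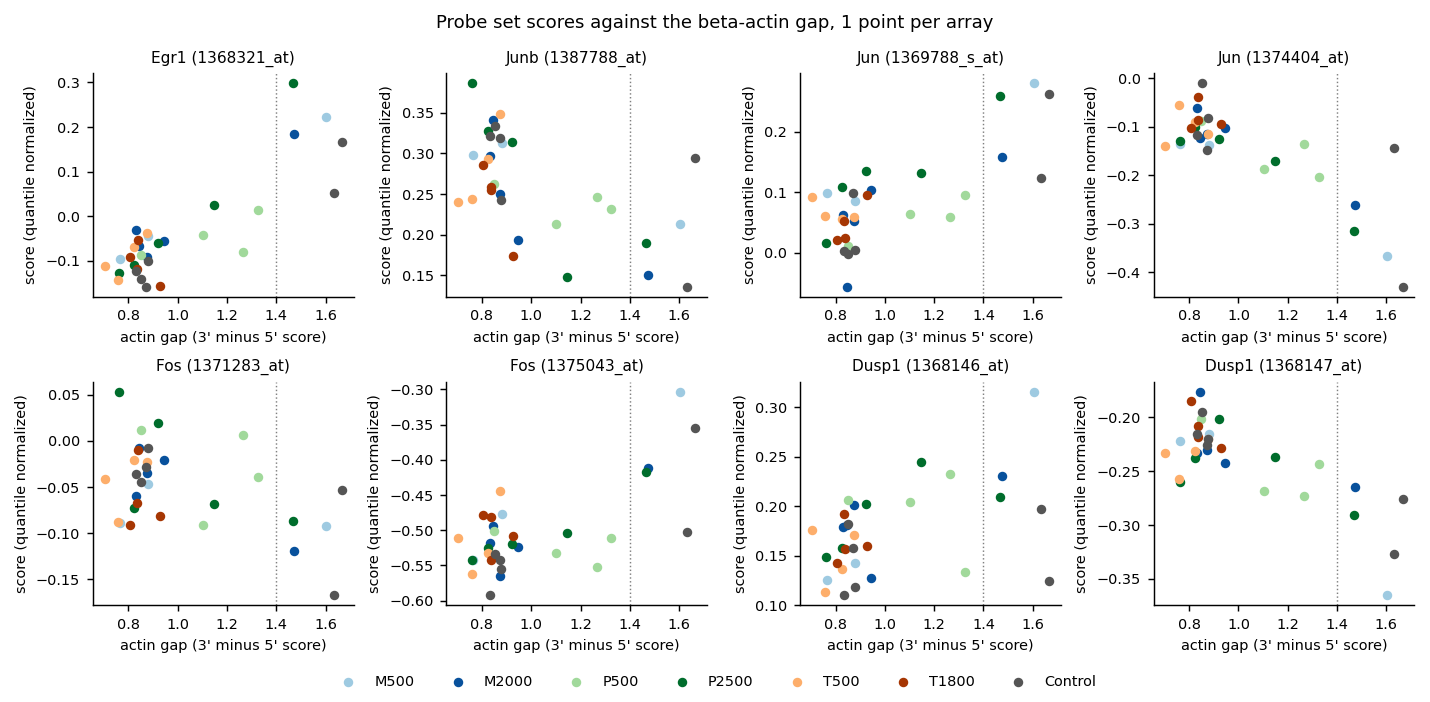
Score of 8 probe sets (vertical) against the actin gap of the array (horizontal, 3′ minus 5′ beta-actin score), 1 point per array, coloured by group, with a dotted line at a gap of 1.4. Egr1 and Jun 1369788_s_at rise with the gap, and Jun 1374404_at and Dusp1 1368147_at run the other way.

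Egr1 and Jun moved with the actin gap. On the 5 arrays with a gap above 1.4, Egr1 scored 0.0521 to 0.298 (median 0.184), against -0.158 to 0.0248 (median -0.0888) on the other 26 arrays. Jun scored 0.124 to 0.280 (median 0.259) on these 5 arrays, against -0.0561 to 0.135 (median 0.0599) on the other 26. Egr1 did not overlap between these arrays, and Jun overlapped at its edge. The share of all probe sets without overlap between them was not analysed here, so this is not shown to be particular to Egr1. The 5 arrays lay in M500, M2000, P2500 and Control, and T500, T1800 and P500 had none.

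Correlations were taken over 31 arrays with each group's mean subtracted, in a family of 16 relations (8 genes, each with the actin gap and with the liver marker mean), with permutations within groups. Egr1 correlated with the gap at r = 0.906 (rho = 0.856, permutation p = 1e-05, the smallest that 100000 permutations can give, adjusted p = 8e-05), and at r = 0.868 without the 2 arrays farthest from the median gap. Jun gave r = 0.847 (rho = 0.763, adjusted permutation p = 8e-05, 0.780 without the 2 arrays). Junb gave r = -0.638 (rho = -0.622, adjusted permutation p = 0.00715, -0.718 without the 2 arrays) and Fos r = -0.560 (rho = -0.456, adjusted permutation p = 0.013, -0.644 without the 2 arrays). The Spearman value of Fos did not pass (adjusted permutation p = 0.0612). The other 4 genes did not pass, with r from -0.219 (Zfp36) to 0.502 (Dusp1).

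Such relations were common on these arrays. Of all probe sets, 50.7% had an r above 0.5 in size with the gap, as had 8 of the 12 immediate early probe sets, and the middle 50% of r ran from -0.504 to 0.51. Egr1 stood near the end of that spread, with 2.49% of probe sets higher, and Jun had 6.66% higher. Within the 26 arrays of gap up to 1.4, Egr1 gave r = 0.595 (rho = 0.456, permutation p = 0.0178, adjusted p = 0.0949, r = 0.451 without the 2 farthest) and Jun r = 0.489 (rho = 0.396, permutation p = 0.0142, adjusted p = 0.0949, r = 0.419 without the 2 farthest). Junb gave r = -0.489 there (rho = -0.419, permutation p = 0.0259, adjusted p = 0.104) and Fos r = -0.197 (adjusted permutation p = 0.72). Of the 8 genes, 0 passed there. With fewer arrays and a narrower range of gaps, this does not show that the relations rest on the 5 arrays of wide gap. With the liver marker mean, 0 of 8 genes passed over 31 arrays (smallest adjusted permutation p = 0.425).

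Probe sets of the same gene moved in opposite directions with the gap. Jun 1374404_at scored -0.429 to -0.145 (median -0.316) on the 5 arrays, against -0.203 to -0.0108 (median -0.115) on the other 26, and its r with the gap was -0.819, where 1369788_s_at had 0.847. These probe sets correlated with each other at r = -0.842 over 31 arrays and -0.343 over 26. The other Jun probe set, 1389528_s_at, had r = 0.322 with the gap, 0.0633 with 1369788_s_at and -0.0633 with 1374404_at. For Fos, 1375043_at had r = 0.788 with the gap and 1371283_at -0.560, and they correlated with each other at -0.299 over 31 arrays and 0.0234 over 26. For Dusp1, 1368147_at had r = -0.800 and 1368146_at 0.502, and they correlated at -0.485 over 31 arrays and 0.21 over 26. These r values describe arrays that share probe sets and RNA. For Jun, Fos and Dusp1 the direction over the 31 arrays thus differed between probe sets of the same gene. Where the probe sets lie in their transcripts was not analysed here.

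**Figure D4:**
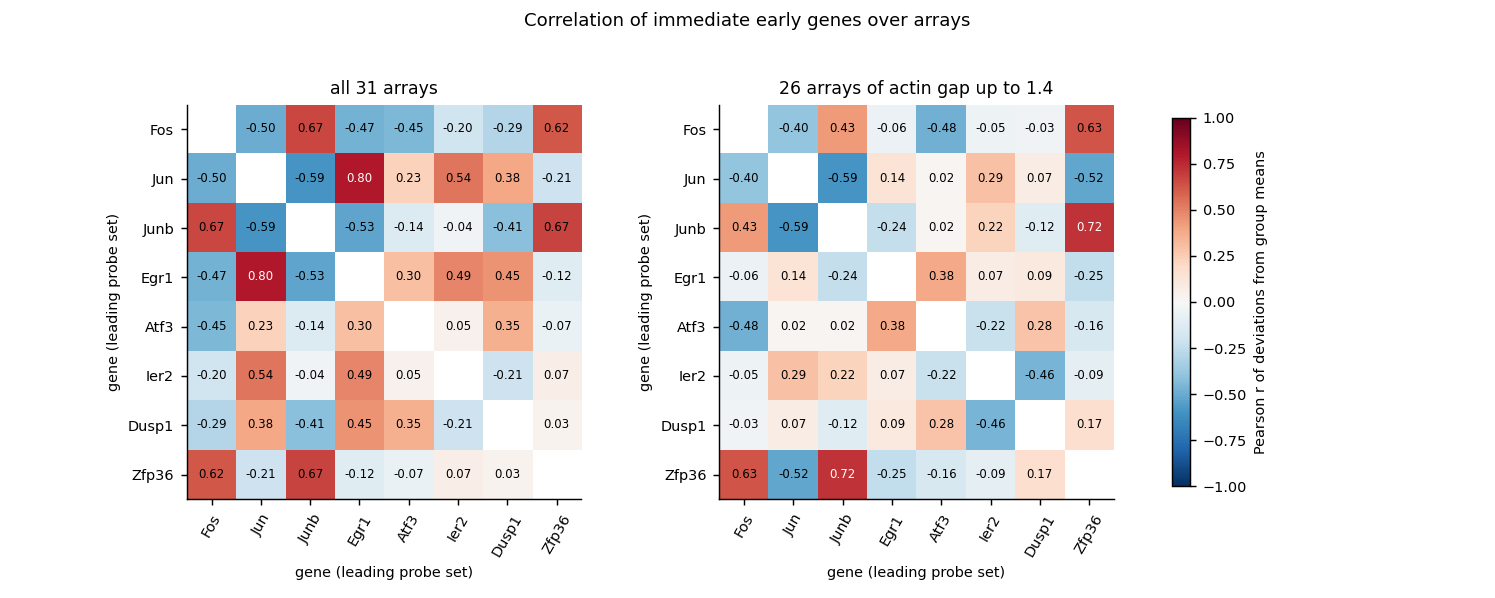
Pearson r between the 8 immediate early genes (leading probe sets, rows and columns) after subtraction of group means, over all 31 arrays (left) and over the 26 arrays of actin gap up to 1.4 (right). Jun with Egr1 is 0.80 on the left and 0.14 on the right, while Junb with Zfp36 is 0.67 and 0.72.

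Among the 28 pairs of genes, 5 correlated at an adjusted permutation p under 0.05 over 31 arrays. These were Jun with Egr1 (r = 0.801, rho = 0.638, adjusted permutation p = 0.0021), Junb with Zfp36 (r = 0.674, rho = 0.632, adjusted permutation p = 0.00168), Fos with Junb (r = 0.671, rho = 0.523, adjusted permutation p = 0.0084), Fos with Zfp36 (r = 0.620, rho = 0.551, adjusted permutation p = 0.0128) and Jun with Junb (r = -0.591, rho = -0.683, adjusted permutation p = 0.03). The share of pairs of other genes that would pass was not analysed here. Of all probe sets, 50.7% had an r above 0.5 in size with the gap, so 5 of 28 cannot be read as particular to these genes. Without the 2 arrays farthest from the median of the first gene, r was 0.702, 0.597, 0.521, 0.446 and -0.691 in the same order of pairs. Fos with Junb (adjusted permutation p = 0.0684) and Fos with Zfp36 (0.0978) then no longer passed. On the scores as deposited, Jun with Junb gave r = -0.292 (adjusted permutation p = 0.273), and 0 of the 5 pairs that passed there had a negative r. Over the 26 arrays of gap up to 1.4, Jun with Egr1 gave r = 0.137 and did not pass. Fos with Zfp36 (r = 0.631, adjusted permutation p = 0.123) and Jun with Junb (r = -0.592, adjusted permutation p = 0.158) kept their size but did not pass. Fos with Junb gave r = 0.426 (adjusted permutation p = 0.399).

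Junb with Zfp36 was the 1 pair that passed there (r = 0.721, rho = 0.666, adjusted permutation p = 0.0101, n = 26, r = 0.687 without the 2 farthest). P2500 01 was the highest array of both genes, with 0.386 for Junb and 0.228 for Zfp36. The lowest Junb array was Control 06 (0.136) and the lowest Zfp36 array P500 04 (0.0536). The median r over the 28 pairs was -0.00165 after quantile normalization and 0.316 on the scores as deposited, so its level depended on the scaling.

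Genes whose scores moved most like the mean of the 8 genes, out of 14209, were Pcdhb22 (r = 0.821), Wdr33 (0.811), Tmem259 (0.799), Pcdh18, Zfp771, Tlcd5, Wdr31, Klhl42, Klhl30 and Ncs1 (0.786), over 31 arrays with group means subtracted. Over the 26 arrays of gap up to 1.4 their r was 0.386 to 0.617. Those most like Egr1 were Wdr45b (r = 0.970), Zbtb18 (0.965), Kctd5 (0.964), Rab21 (0.960) and Parg (0.959). Each of these 5 had an r of 0.917 to 0.937 with the actin gap itself. These values describe arrays and carry no test.

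Other genes of the early response were measured in 6 lists of 87 genes, and 0 of the 87 had a limma adjusted p under 0.05 in any exposed group. Of the other AP-1 subunits, 12 of 12 were measured, and their smallest unadjusted p against Control was 0.0915, with Fosl1, a Fos relative, at an F-test p-value of 0.301. Next in that list were Batf (0.424) and Batf3 (0.458), AP-1 partners known from immune cells, and the Fos relative Fosb (0.46). Of 10 MAP kinase phosphatases and Sprouty genes, Dusp8 (0.111), Dusp5 (0.129), Dusp4 (0.375) and Dusp6 (0.544) had the smallest F-test p-values. Of 13 upstream kinases and factors these were Srf (0.196), which binds the CArG box, and the kinases Mapk9 (0.283), Mapk14 (0.294) and Mapk8 (0.423). Of 5 heat shock genes they were Hspb1 (0.169), Hspa1a (0.314), Dnajb1 (0.551) and Hspa1l (0.728), all chaperones. None of these p-values is adjusted.

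The smallest p-values in the lists were in other early transcription factors (21 measured) and effectors (26 measured). Rgs2, which curbs G protein signalling, averaged 0.448 ± 0.0216 in M500, 0.442 ± 0.0571 in M2000, 0.471 ± 0.0275 in P500, 0.378 ± 0.0622 in P2500, 0.473 ± 0.0588 in T500 and 0.456 ± 0.0246 in T1800, against 0.367 ± 0.0586 in Control (SD). Its limma F test gave an adjusted p of 0.507. Every exposed mean of Rgs2 was above that of Control, without passing the test, and these differences share the same Control arrays. Ppp1r15a, which restores translation after stress, averaged 0.129 ± 0.0253 in T1800, against 0.0731 ± 0.0452 in Control (SD, limma F-test adjusted p = 0.519). Nfkbia, the inhibitor of NF-kappa-B, averaged 0.384 ± 0.0121 in T1800, against 0.291 ± 0.0661 in Control (SD, limma F-test adjusted p = 0.688). For T1800 against Control itself, the limma adjusted p was 0.767 for Ppp1r15a and 0.747 for Nfkbia. In T1800, 6 of the 26 effectors had an unadjusted p under 0.05, where 5.84% of all probe sets had one, and 0 passed after adjustment. In T500 this count was 3 of 26, in M500 and M2000 2 each, and in P500 and P2500 1 each. At that threshold the share of all probe sets was 7.62% in T500, 9% in M500, 1.7% in M2000, 3.36% in P500 and 4.15% in P2500. With the animal series as a block, 5 of the 26 effectors had an unadjusted p under 0.05 in T1800, and within the later animals 1 had. The shares of all probe sets were 5.38% with the block and 3.93% within the later animals. The Nfkbia difference in T1800 was 0.0930 over all arrays, 0.0956 with that block and 0.0938 within the later animals. The effectors' median difference in T1800 was 0.0222, against -0.00289 over all probe sets. The mean of the 5 macrophage markers, all measured, was 0.429 to 0.520 in T1800, against 0.233 to 0.415 in Control. That of the 2 measured of 3 erythrocyte markers was 1.15 to 1.27 in T1800, against 0.551 to 1.06 in Control. In T500 the macrophage mean was 0.316 to 0.467 and the erythrocyte mean 1.16 to 1.42, so high erythrocyte markers were not particular to T1800. The part of these markers in the effector values was not tested.

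Id2 and Id3 code for inhibitors of helix-loop-helix factors. Id2 averaged 0.367 ± 0.111 in P2500, against 0.0943 ± 0.141 in Control (SD, n = 5 and 6, limma F-test adjusted p = 0.761). The F test spans all 7 groups and is not a test of 1 exposed group against Control. Among the 21 early transcription factors, the smallest unadjusted limma p against Control was 0.000659 in P2500 (limma adjusted p = 0.117). It was 0.000738 in T500 (limma adjusted p = 0.521) and 0.00333 in T1800 (limma adjusted p = 0.714). P2500 replicates 2, 3 and 4, which carry liver transcripts, scored 0.347, 0.406 and 0.454 for Id2, and replicates 1 and 5 scored 0.442 and 0.183. Without replicates 2, 3 and 4 the F test gave a limma adjusted p of 0.97. Id3 averaged 0.122 ± 0.0583 in T500 and 0.0895 ± 0.0407 in T1800, against -0.0876 ± 0.104 in Control (SD, limma F-test adjusted p = 0.54). Without the 5 arrays of wide gap both passed the F test over the 7 groups (limma adjusted p = 0.0189 for Id2 and 0.0115 for Id3), as did 1.82% of all probe sets. With array weights Id2, Id3, Rgs2, Nfkbia and Ier3 passed it (limma adjusted p = 0.00194 to 0.0479), as did 5.77% of all probe sets. Id3 had r = -0.810 with the gap and Id2 0.322, and with the gap as a covariate neither passed (limma adjusted p = 0.289 for Id2 and 0.245 for Id3). Csrnp1, Bhlhe40 and Ier3 had F-test adjusted p-values of 0.7, 0.875 and 0.782 (limma).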

How the data were processed

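Testis RNA was measured on Affymetrix rat genome arrays, 1 per rat, after copying from an oligo-dT primer, per the labels' protocols. The authors deposited 1 score for each probe set and array, and no source used here says how it was summarised or normalized. The table held 31099 rows. The 57 control probe sets were left out of tests, and gene symbols came from the platform annotation, which can be old (20826 probe sets with 1 symbol, 436 with several, 9780 with none).

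Scores were quantile normalized, and 1 mean per group was fitted over 31 arrays with limma 3.58.1 in R 4.3.3 (lmFit, eBayes). The Benjamini-Hochberg adjustment ran over 31042 probe sets, with a threshold of 0.05, and the script was tested on simulated data. Correlations used deviations from group means with 100000 permutations within groups. The number of arrays limits the precision: over all probe sets, the standard error of an exposed group's difference from Control had a median of 0.0327 to 0.0382.

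The genes, the lists and the limit of 1.4 on the actin gap were chosen with earlier results of these data known. All 9 genes were described. Further genes were the 10 most like the mean of the 8 genes, the 5 most like the gene of largest spread, and up to 4 per list with the smallest F-test p. Alternatives were the scores as deposited, other sets of arrays, array weights, the actin gap or blocks as covariates, a filter on dim probe sets and each array left out.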

Additional observations from a re-analysis of the deposited data

Results flagged for a closer look

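Of 72 groups of 4 or more arrays tested for an array far from the rest of its group (Dixon's ratio at 95%), 5 were marked, and chance marks about 1 in 20. Egr1 was 0.184 on M2000 05, against -0.0905 to -0.0306 on the other M2000 arrays. The Jun probe set 1374404_at was -0.429 on Control 02, against -0.149 to -0.0108 on the other Control arrays. Fos (1371283_at) was -0.167 on Control 06, against -0.0528 to -0.00753 on the others. These 3 arrays had actin gaps of 1.47, 1.67 and 1.63. The Jun probe set 1369788_s_at was 0.0923 on T500 03, against 0.0561 to 0.0610 on the other T500 arrays, with a gap of 0.704. Atf3 was -0.329 on T1800 03, against -0.307 to -0.304 on the other T1800 arrays, with a gap of 0.928. The part of the gap in these values was not tested.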

How the results depend on the processing

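The absence of calls among the 12 probe sets held in the contrasts with Control under each alternative run except array weights, which called 1, Jun in P2500 (adjusted p = 0.0396, limma). The absence of unadjusted limma p-values under 0.05 did not hold. Of 72 tests, 11 had one with the gap as a covariate, 7 with the replicate block and 6 without the arrays of wide gap. With array weights 5 had one, and 1 each on the scores as deposited and without P2500 replicates 2, 3 and 4. The share of all probe sets at that threshold is not given for these settings. With each array left out, the Egr1 difference in M500 ran from -0.0201 to 0.140 and that of Ier2 in P500 from -0.0464 to 0.00288. Leaving out each of 31 arrays in turn gave 0 calls in 1296 tests (smallest limma adjusted p = 0.26). Signs were less stable: of 48 differences with Control of the leading probe sets, 34 kept theirs without the arrays of gap above 1.4, 33 with array weights and 35 with the gap as a covariate. Among the differences followed, Fos in P500 turned to -0.00123 with array weights and -0.0133 with the replicate block, Egr1 in M500 to -0.0201 without M500 replicate 4, Ier2 in P500 to 0.00288 without Control replicate 2, and Zfp36 in T1800 to 0.00307 within animals numbered above 3000. Fos, Egr1, Ier2 and Zfp36 were not called in these groups under any of the settings.

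Of the 28 pairs, 5 passed; 1 passed without the arrays of gap above 1.4 and 3 without P2500 replicates 2, 3 and 4. The count of genes that correlated with the gap, 4, became 2 on the scores as deposited and 0 without the arrays of gap above 1.4. Id2, Id3, Ier3, Rgs2 and Nfkbia passed the F test with array weights (limma adjusted p = 0.00194, 0.00246, 0.0479, 0.0361 and 0.0144), as did 5.77% of all probe sets. Calls over all probe sets in the contrasts with Control, 0 to 2, became 8 to 882 with array weights, 0 to 231 with the gap as a covariate, 0 to 308 without the arrays of wide gap, and 0 to 283 with 1 array left out. The cause was not tested.

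Correlations between arrays showed no pairing of the rats by replicate number. Same-numbered arrays of different groups correlated at a median of 0.0388 (73 pairs), and differently numbered ones at 0.0372 (336 pairs). The same-numbered pairs ran from -0.768 to 0.775, so similar medians cannot exclude a pairing. The replicate block gave 0 calls in 72 tests (smallest limma adjusted p = 0.376). With it, 35 of the 48 differences of leading probe sets from Control kept their sign. A filter on mean scores above 0 kept 4 of the 12 probe sets. The 12 probe sets all lay below the lowest hybridisation control.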
